A study of Mus musculus with 8 samples.

Results

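The Hedgehog pathway genes described here are 9 genes, Smo, Ptch1, Shh, Ihh, Dhh, Gli1, Gli2, Gli3 and Sufu, of 22367 protein-coding genes that GENCODE M1 annotates on chromosomes 1 to 19, X and Y of mm9. They were chosen by name as core members of the pathway, and the pathway was selected on the height of a DNA break peak beside Smo, so the height of that peak is given as a description only. DNA double-strand breaks were mapped in mouse embryonic stem (ES) cells by DSB-seq, in which terminal transferase adds biotin to broken DNA ends inside fixed nuclei and the labelled DNA is purified and sequenced. Chd1 is a chromatin remodeler. Chd1 KO cells (Chd1Δ/Δ) lacked both copies of Chd1, and control cells (Chd1fl/Δ) kept 1 floxed copy beside 1 deleted copy; both were established ES cell lines. Each genotype had 2 replicates, which were combined before peaks were called, so there was 1 list per genotype, no spread between replicates could be computed and no difference between genotypes was tested. The ChIP-seq samples and the DSB-seq signal tracks were not used here. The Chd1 KO list held 5671 peaks and the control list 54. The lowest local background was 3.18 reads at a Chd1 KO summit and 2.95 reads at a control summit; this floor scales with the number of reads, so the depths of the combined libraries were close.

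Hedgehog ligands are secreted proteins that pattern embryonic tissues and maintain some adult stem cells. Without ligand, the receptor Ptch1 keeps the membrane protein Smo inactive, and Sufu holds Gli proteins in the cytoplasm and promotes their processing to repressors. Ligand binding to Ptch1 releases Smo, which accumulates in the primary cilium and allows Gli proteins to activate target genes, among them Ptch1 and Gli1 themselves.

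Sequences from the Chd1 KO peaks at or in Smo, Ptch1, Shh and Gli2 are shown because base composition differs among them. Counts of genes with a summit are given below beside the shares of all protein-coding genes. Capitals mark uninterrupted G or C over 12 bp or more, called runs of G and C below. Each sequence is from mm9 and reads 5′ to 3′ on the strand of the gene. The Smo sequence (chr6:29685448-29685693, plus strand) is the part of the peak upstream of the TSS. The Ptch1 sequence (chr13:63666719-63666828, minus strand) runs from the start codon of an internal first exon to the end of the peak. The Shh sequence (chr5:28784547-28784846, minus strand) lies in the last coding exon, and the Gli2 sequence (chr1:120909764-120910063, minus strand) in an intron.
Smo: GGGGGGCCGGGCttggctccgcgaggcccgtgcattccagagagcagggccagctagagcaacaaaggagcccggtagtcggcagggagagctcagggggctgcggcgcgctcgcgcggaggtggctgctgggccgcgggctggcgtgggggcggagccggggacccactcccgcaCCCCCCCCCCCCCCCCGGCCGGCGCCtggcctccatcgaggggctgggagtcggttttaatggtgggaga
Ptch1: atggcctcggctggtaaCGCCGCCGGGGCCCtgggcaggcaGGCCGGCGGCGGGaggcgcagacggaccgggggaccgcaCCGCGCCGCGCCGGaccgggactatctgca
Shh: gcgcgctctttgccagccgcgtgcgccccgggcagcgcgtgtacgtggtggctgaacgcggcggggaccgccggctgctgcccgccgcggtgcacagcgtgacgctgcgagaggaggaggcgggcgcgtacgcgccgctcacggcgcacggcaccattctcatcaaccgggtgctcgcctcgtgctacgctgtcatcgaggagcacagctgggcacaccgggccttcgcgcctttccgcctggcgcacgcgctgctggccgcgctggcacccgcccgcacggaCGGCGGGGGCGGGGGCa
Gli2: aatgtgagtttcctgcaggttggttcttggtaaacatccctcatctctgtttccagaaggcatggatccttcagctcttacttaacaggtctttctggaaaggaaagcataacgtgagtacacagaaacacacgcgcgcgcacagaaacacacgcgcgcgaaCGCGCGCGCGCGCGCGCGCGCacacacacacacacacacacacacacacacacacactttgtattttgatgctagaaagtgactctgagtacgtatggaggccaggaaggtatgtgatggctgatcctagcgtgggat

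Within 1 kb of any annotated TSS, a Chd1 KO summit was found at 2 of the 9 genes, Smo and Ptch1. Among all protein-coding genes the share was 15.9%, or 3560 of 22367 genes, and the count for the Hedgehog genes includes the Smo peak used in their choice. No control summit lay within 1 kb of a TSS of any of the 9 genes, and the share among all protein-coding genes was 0%, so the absence of control summits is not particular to the pathway. In the gene body, from the outermost start to the outermost end, 3 genes held a Chd1 KO summit (Ptch1, Shh and Gli2), against 15.3% of protein-coding genes (3417 genes). The bodies of the 9 genes held 3 summits over 702 kb, or 0.427 summits per 100 kb, and all protein-coding genes together held 0.390 per 100 kb. The first 1 kb after every TSS of the same gene, where the Ptch1 summit lies, was then left out. With this setting, 2 of the 9 genes (Shh and Gli2) and 1011 protein-coding genes (4.52%) had a summit in the body. These counts are not scaled to gene length. Gli2 spans 219 kb, longer than 96.2% of protein-coding genes, and the Shh summit lies 117 bp from the TSS of a lincRNA. No control summit lay in a Hedgehog gene body, and 7 of all protein-coding genes (0.0313%) held one, so this count too is that of nearly all genes.

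The 3 ligand genes had no summit at a TSS. Shh, the ligand of the notochord, floor plate and limb bud, spans 10.3 kb of chromosome 5 (chr5:28783355-28793641, minus strand) and its promoter, taken as the 1 kb on each side of the outermost TSS, was 52.0% G or C, near the median of 51.1% for protein-coding genes. Its Chd1 KO peak (chr5:28784502-28784851) lay far from that promoter, with the summit 8944 bp downstream of the TSS. Fold enrichment, which divides the read pileup at a summit by its local background after adding 1 to both, was 5.39, from 25 reads over a background of 3.82 (95% Poisson interval of the fold from the reads, 3.56 to 7.86). All intervals given for peaks cover counting error only and take the background as known. The summit was also 117 bp upstream of the TSS of 9530036O11Rik, a lincRNA on the opposite strand, so it counts as a peak near a TSS, though not one of Shh. GC content was 74.6% over the 350 bp of the peak. Among other genes within 2 percentage points of the Shh promoter GC content, 9.57% had a summit at a TSS.

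Ihh, which regulates chondrocyte growth, had the highest promoter GC content of the 9 genes. It was 64.7%, above 97.5% of protein-coding genes, and its longest run of G and C was 26 bp. The summit nearest to its TSS was nonetheless 96.7 kb away. Among the 837 other genes within 2 percentage points of its promoter GC content, 533 (63.7%) had a Chd1 KO summit at a TSS. Dhh, which acts in testis and peripheral nerve, was the shortest gene at 5.51 kb and had a promoter GC content of 55.3%. Its nearest Chd1 KO summit was 36.1 kb away, and 19.6% of genes of similar promoter GC content had a summit at a TSS.

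Ptch1, the receptor and itself a transcriptional target of Gli proteins, spans 64.2 kb on chromosome 13 (chr13:63610261-63674474, minus strand) and has 4 annotated TSSs. The Chd1 KO peak (chr13:63666719-63666964) was not at the outermost of them: its summit lay 7.68 kb inside the gene, 37 bp downstream of an internal TSS. The annotated transcript from that TSS begins at its start codon, so the true start may lie further upstream, and the distance is from the annotated position. Fold enrichment was 3.80, from 20 reads over a background of 4.52 (interval 2.39 to 5.78), and −log10 q was 4.24. This was a low peak, number 3194 by fold enrichment of the 3673 Chd1 KO peaks near TSSs. With only the outermost TSS of each gene, or a fold enrichment of at least 4, Ptch1 drops out and 1 of the 9 genes has a summit at a TSS. The share of all protein-coding genes is then 14.3% with the outermost TSS and 12.7% with that fold enrichment. The peak had a GC content of 80.5% and 4 runs of G and C of at least 12 bp, the longest of 18 bp. Promoter GC content was 65.6% around the internal TSS and 60.9% around the outermost one, which had a longer run, of 22 bp, and no summit.

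Smo, the transducer that carries the signal across the membrane, had the highest peak of the 9 genes. The gene spans 25.7 kb (chr6:29685694-29711365, plus strand) with 1 annotated TSS. The peak (chr6:29685448-29685857) covered both sides of the TSS, its summit lay 113 bp upstream, and no other gene had a TSS within 1 kb of it. At the summit 37 reads stood over a background of 3.70, a fold enrichment of 8.09 (interval 5.76 to 11.1), with a −log10 p of 24.7 and a −log10 q of 19.5. Values of −log10 p in the control list ran from 7.13 to 42.2, a range that includes those of the Smo peak and the Ptch1 peak (7.81). By fold enrichment it was number 4 of the 3673 Chd1 KO peaks near TSSs, whose median was 4.53 and whose highest was 8.27. Among all 5671 Chd1 KO peaks it was number 47. Near TSSs of protein-coding transcripts alone it was number 2, and by reads at the summit number 16.

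**Figure D1:**
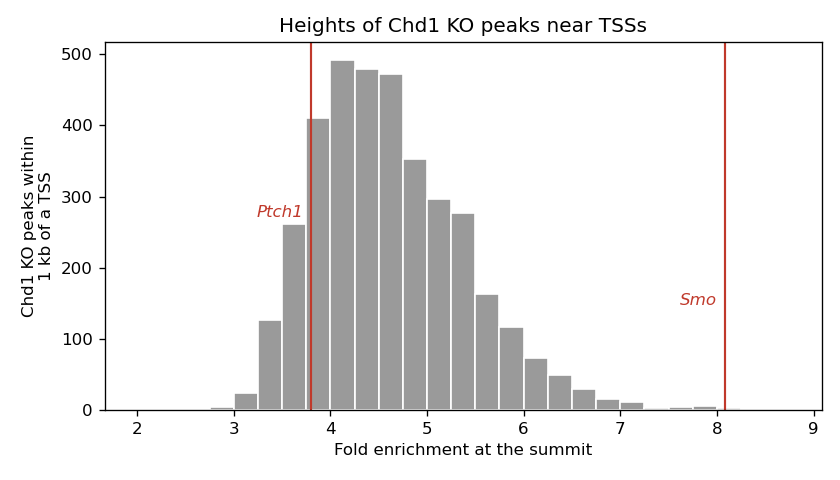
Number of Chd1 KO peaks within 1 kb of a TSS (vertical axis) by fold enrichment at the summit (horizontal axis), for 3673 peaks. Red lines mark the peaks of Ptch1 at 3.80, on the low side of the distribution, and of Smo at 8.09, in its upper tail.

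The peaks just above Smo were at SNORA17 on chromosome 9 (8.27), SNORA17 on chromosome 8 (8.16), both annotated snoRNA genes, and Gm9008 (8.13). Just below it were the peak shared by Gm9970 and Nrbp1 (7.89) and those of Kmo (7.89) and Gm5582 (7.89). These 6 values all lie within the counting interval of the Smo peak, as do those of 309 peaks near TSSs (8.41%) when Smo is included, so the order among them is not resolved. Of the other genes within 2 percentage points of the Smo promoter GC content of 62.1%, 869 of 1607 (54.1%) had a summit at a TSS. The median of their highest peaks was 4.56 and the maximum 7.86. The 5 genes with a summit that were nearest to Smo in promoter GC content and gene length were Pygo1 (fold enrichment 5.23), She (4.55), Rnf170 (4.27), Ctbp1 (4.74) and Sep15 (5.75). The pathway was chosen on the height of the Smo peak, so that these peaks are lower is a description only.

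The longest run of G and C in the Smo peak was 26 bp and centred 58 bp upstream of the TSS, between the summit and the TSS. It opens with a stretch of C alone, as the capitals of the Smo sequence show. The longest run of 94.3% of protein-coding promoters was shorter, but 50.9% of Chd1 KO peaks near TSSs had a run of at least 20 bp, and of the 5 genes nearest to Smo, Pygo1 (26 bp), She (28 bp), Rnf170 (30 bp) and Ctbp1 (35 bp) had promoter runs as long or longer.

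**Figure D2:**
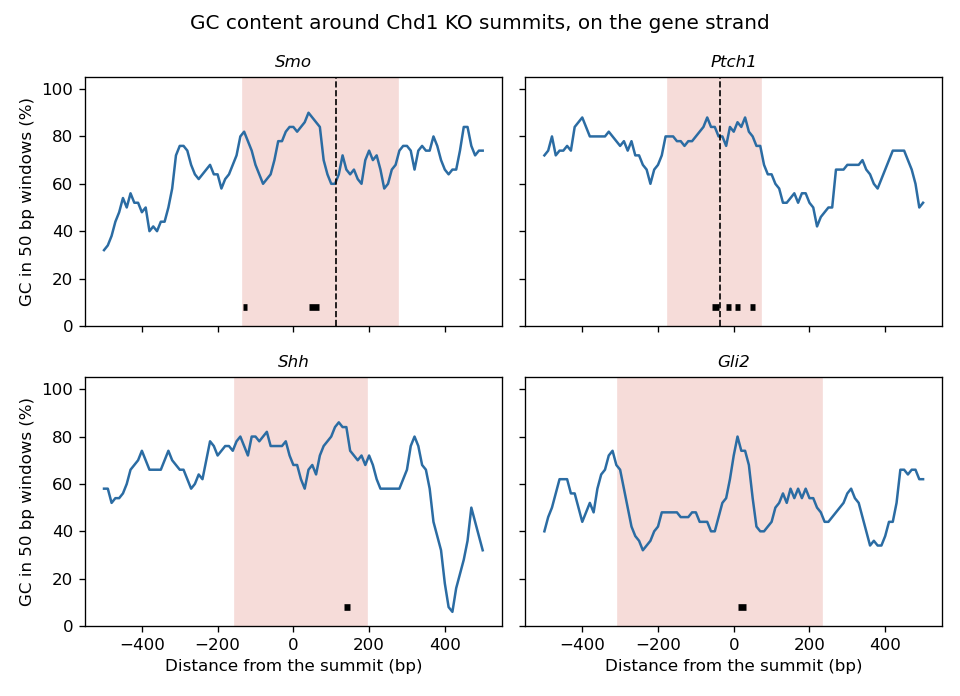
GC content in 50 bp windows (vertical axis) against distance from the Chd1 KO summit on the gene strand (horizontal axis) for the peaks of Smo, Ptch1, Shh and Gli2. Pink marks the peak, black bars the runs of G and C of at least 12 bp and dashed lines the nearest TSS of the gene. The Gli2 peak has a narrow GC-rich centre, with a window of 80% GC beside the summit. Another GC-rich stretch, with a window of 74% GC, lies 320 bp upstream of that summit.

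Sufu, the inhibitor that binds Gli proteins, had no summit at any of 7 annotated TSSs or in its 91.9 kb body. Its promoter GC content was 52.7% and its nearest Chd1 KO summit was 47.8 kb from the outermost TSS. Among genes of similar promoter GC content, 11.4% had a summit at a TSS.

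None of the 3 Gli transcription factor genes had a summit at a TSS. Gli1, an activator whose own transcription is a common readout of Hedgehog signalling, spans 11.7 kb and had a promoter GC content of 58.7%. Among genes of similar promoter GC content, 35.9% had a summit at a TSS. For Gli2, the main activator downstream of Smo, that share was 38.9%. Gli2 had a promoter GC content of 59.2% and spans 219 kb. Its body held 1 Chd1 KO peak (chr1:120909682-120910219), 40.3 kb downstream of the outermost TSS, with a fold enrichment of 4.60 from 24 reads over a background of 4.44 (interval 3.01 to 6.75). This was an ordinary height, above 51.1% of all Chd1 KO peaks. The Gli2 peak differed from the others in composition: GC content was 50.0% over the peak, and its summit stood beside an alternating CG repeat of 21 bp followed by a CA repeat. Alternating CG repeats of at least 20 bp were found in the 300 bp around 0.218% of Chd1 KO summits near TSSs and 14.4% of those farther from TSSs, and CA or TG repeats of that length around 0.653% and 25.2%; the CA repeat was looked for after the sequence had been seen.

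Gli3, which is processed mainly to a repressor, is the longest of the 9 genes at 267 kb. It had a promoter GC content of 63.4%, a CpG observed over expected ratio of 0.885, above 97.2% of protein-coding genes, and the longest run of G and C of the 9 promoters, 30 bp in the first intron (chr13:15555288-15555317, plus strand, all of it G or C and so in capitals).
Gli3 run: GCGGCGGCGGCGGCGGCGGCGGCGGCGGCG
Gli3 nevertheless had no summit at any of 4 annotated TSSs or in its body, and the nearest one was 1398 kb from the outermost TSS. Among the 1156 other genes of similar promoter GC content, 59.1% had a summit at a TSS. High GC content and a long run were thus found at Hedgehog promoters with a summit and at ones without.

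**Figure D3:**
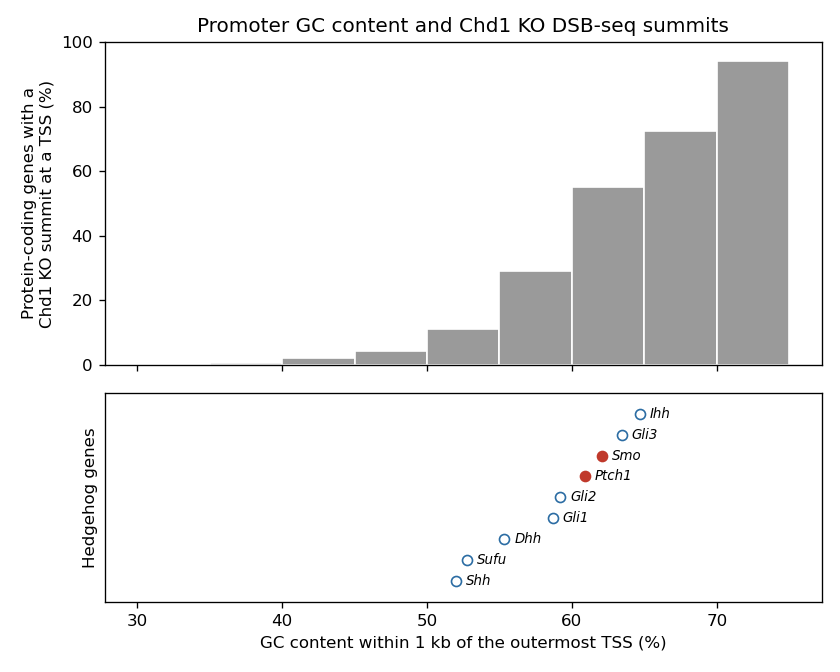
Share of protein-coding genes with a Chd1 KO summit within 1 kb of a TSS (upper panel, percent) in bands of promoter GC content (horizontal axis, percent), and the promoter GC content of the 9 Hedgehog genes (lower panel; filled red, summit at a TSS; open blue, none). The share was 11.0% between 50 and 55% GC and 55.2% between 60 and 65%, where Smo, Ptch1, Gli3 and Ihh lie.

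Across the 9 genes the median promoter GC content was 59.2%, the median longest run 21 bp and the median length 25.7 kb, against 51.1%, 12 bp and 15.4 kb for all protein-coding genes. In the band of 60 to 65% GC, 2 of 4 Hedgehog genes had a summit at a TSS, beside 55.2% of protein-coding genes; the bands use the outermost TSS, and the Ptch1 summit is at an internal one. In the band of 55 to 60%, 0 of 3 did, beside 29.2%, and between 50 and 55%, 0 of 2, beside 11.0%. The number of Hedgehog genes in each band is too small to tell these shares apart.

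Known motifs were searched on both strands of the 300 bp centred on each summit. The GC box GGGCGG, bound by Sp family factors, occurred once around the Smo summit and at 2 places around the Shh summit, and was not found around the Ptch1 or Gli2 summit. It was present around 89.3% of Chd1 KO summits near TSSs and 50.7% of those farther away, the class of the Gli2 summit. A G-quadruplex pattern, 4 runs of at least 3 G spaced by 1 to 7 bases, was found around the Smo summit and not around the other 3, beside 58.6% of summits near TSSs and 56.3% of those farther away. The Gli consensus GACCACCCA was found around none of the 4 summits and around 0.245% of summits near TSSs and 0.200% of those farther away. A match or its absence describes these letters only and not the binding of a factor.

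A wider list of 44 further genes of the pathway, drawn up with earlier results of these data known, was described by role. GENCODE M1 held 43 of them under a known symbol, and Disp1 was not matched. A Chd1 KO summit lay within 1 kb of a TSS at 13 of the 43 (30.2%), beside 15.9% of all protein-coding genes, and a control summit at 0. The share was 9.51% for protein-coding genes with 1 TSS and 21.0% for those with more than 1, as most of the 43 have. When summits over 100 bp downstream of a TSS were left out, 7 of the 43 (16.3%) had a Chd1 KO summit, beside 2302 protein-coding genes (10.3%). By role, this leaves 2 of 12 genes for cytoplasmic control of Gli proteins (Spop and Prkaca) in place of 6, 1 of 8 co-receptors and ligand-binding membrane proteins (Cdon) in place of 2, and 2 of 5 genes for ligand lipidation, release and spreading (Scube2 and Scube3) in place of 3; the cilium and target gene counts stay at 1 each. Genes with a summit had a median promoter GC content of 60.5% and genes without one 55.1%. The list is therefore set beside all protein-coding genes in bands of promoter GC content, each with few genes of the list. Between 50 and 55% GC, 1 of 11 genes had a summit, beside 11.0% of protein-coding genes, and between 55 and 60%, 4 of 17 (23.5%), beside 29.2%. Between 60 and 65%, 3 of 5 did, beside 55.2%, and at 65% or more, 4 of 5, beside 76.3%. Between 45 and 50% it was 1 of 4, Prkar1a, beside 4.12%, and the 1 gene below 45% had none. The Prkar1a summit was not at the promoter whose GC content places it in that band: it lay 1.74 kb downstream of the outermost TSS, at an internal TSS, in a peak of 80.4% GC, and it is not counted with the outermost TSS alone.

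Each role is read beside the 15.9% of all protein-coding genes and the median, over its genes, of the share with a summit among genes of similar promoter GC content. That median was 23.8% for ligand lipidation, release and spreading, 30.8% for co-receptors and ligand-binding membrane proteins, 16.7% for the cilium and Smo traffic, 18.0% for cytoplasmic control of Gli proteins and 25.7% for target genes.

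Among genes for ligand lipidation, release and spreading, 3 of 5 had a summit, all of them Scube genes, whose secreted products help to release Hedgehog from cells. Scube1 had a fold enrichment of 4.60 and Scube2 of 4.45, and Scube3 had 2 summits. The similar-GC shares were 63.6% for Scube1, 23.8% for Scube2 and 57.7% for Scube3. Hhat, the acyltransferase of Hedgehog ligands, had the highest promoter GC content of those without a summit, 54.6%. Of 8 co-receptors and ligand-binding membrane proteins, Cdon (5.07) and Gas1 (4.12), both of which bind ligand together with Ptch1, had a summit, that of Gas1 211 bp downstream of a TSS. Lrp2 had none at a promoter GC content of 59.4%. Boc, the relative of Cdon, had no summit at a TSS but a peak in an intron with a fold enrichment of 7.14 (interval 5.04 to 9.86), the highest in the wider list; it is named after its value was seen.

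Of 11 genes for the cilium, Smo traffic and Smo complexes, only Arrb2 (4.39), a β-arrestin, had a summit. Adrbk1, a kinase for G protein-coupled receptors, had none at a promoter GC content of 60.5%. The genes for cytoplasmic control of Gli proteins had summits at 6 of 12, namely Prkar1a, Spop, Fbxw11, Cul3, Prkacb and Prkaca, of which 4 have their summit over 100 bp downstream of a TSS and are left out of the narrower count. Among genes of similar promoter GC content the share with a summit was 67.3% for Prkaca, 66.7% for Cul3, 46.6% for Fbxw11, 30.8% for Prkacb, 13.9% for Spop and 4.47% for Prkar1a. For Prkar1a this share refers to the outermost promoter, which had no summit. The highest were at Prkar1a (5.56), a regulatory subunit of protein kinase A, and Spop (5.43), an adaptor that brings Gli proteins to the Cul3 ubiquitin ligase. Gsk3b, a kinase that phosphorylates Gli proteins, had no summit at a promoter GC content of 65.7%, the same as that of Cul3. Of 7 known target genes, which are developmental transcription factors and the cyclin gene Ccnd1, Foxf1a alone had a summit. Its fold enrichment of 3.09 was higher than only 0.218% of Chd1 KO peaks near TSSs, and the summit was shared with the lincRNA 1110050K14Rik. It is not counted within 500 bp of a TSS, at a −log10 q of at least 3, at the lowest −log10 p of the control list or at a fold enrichment of at least 4, and the count of target genes is then 0 of 7. In that order, the share of all protein-coding genes at these settings was 14.7%, 15.3%, 14.2% and 12.7%. Nkx2-2 had no summit at 62.9% GC. The peaks of the wider list at TSSs were lower than that of Smo, whose height was used in choosing the pathway. The interval of the highest, at Prkar1a (3.73 to 7.99), overlapped that of Smo (5.76 to 11.1), and no difference in height was tested.

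**Figure D4:**
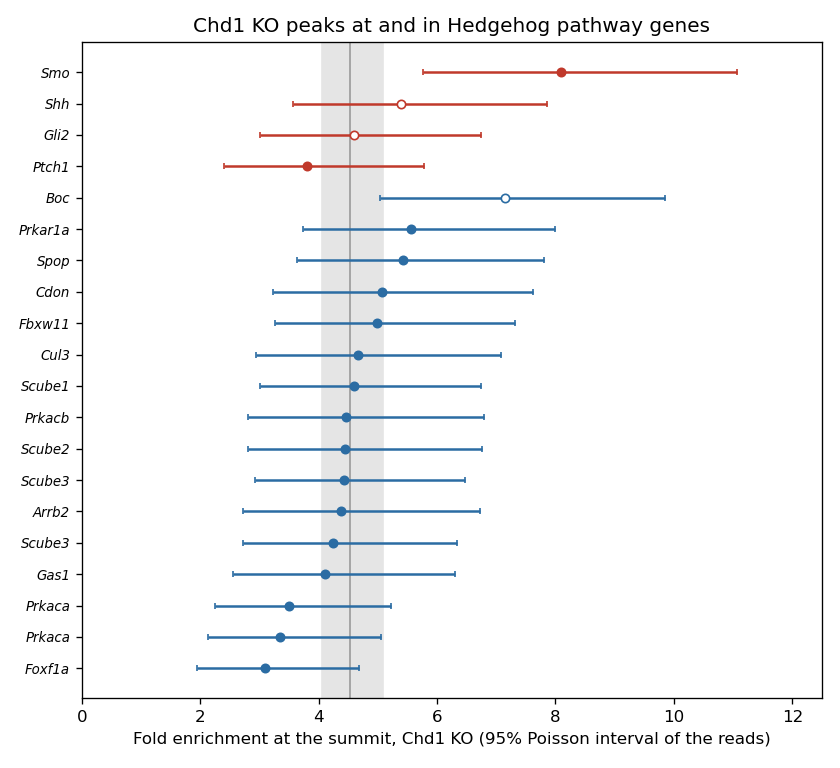
Fold enrichment at the summit of each Chd1 KO peak at or in a Hedgehog gene (red) or a gene of the wider list (blue), with the 95% Poisson interval of the reads as bars. Filled points lie within 1 kb of a TSS of the gene and open points only in its body; the grey line and band are the median and quartiles of all Chd1 KO peaks near TSSs.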

How the data were processed

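DSB-seq peak lists of Chd1 KO and control ES cells, 2 replicates each, were analysed. The authors mapped reads to mm9 with Bowtie2, dropped poorly mapped reads and duplicates and combined replicates. MACS2 then extended reads to 200 bp and called peaks (q-value cutoff, 0.05), and blacklisted regions were removed. The deposited fold enrichment is a ratio of reads to local background within a library. The deposited −log10 p-value and −log10 q-value belong to each library, so equal q-values stand for different p-values in the 2 lists. Only regions that passed the cutoff are listed, so a region with no peak has no value.

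Summits were matched to every TSS of GENCODE M1 on the mm9 genome, and all peaks lay within its chromosomes. Read numbers and background were solved from fold enrichment and −log10 p together. Promoter features were taken within 1 kb of the outermost TSS. Matching and read recovery were checked on simulated data. No test was made. The named genes are the 9 members, genes sharing their summits, the 3 peaks on each side of Smo in height, the 5 genes nearest to Smo in promoter GC content and log2 length, each divided by its SD, and, by role in the wider list, every gene with a summit, values for the 2 highest and the gene without one that is richest in GC. The members and lists were chosen with earlier results of these data known. Alternatives were other windows, peak positions, TSS sets and thresholds. Python 3.11.15, NumPy 2.4.6, SciPy 1.17.1, pandas 2.3.3, pysam 0.24.0 and Matplotlib 3.10.9 were used.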

Additional observations from a re-analysis of the deposited data

How the results depend on the processing

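Of 72 alternatives, 59 left the value unchanged or within 1.5 times for a count or rank, and 13 moved it. With the outermost TSS alone, or a fold enrichment of at least 4, 1 of the 9 genes had a Chd1 KO summit at a TSS, Smo, because the Ptch1 summit is at an internal TSS and has a fold of 3.80. Beside it, 14.3% of all protein-coding genes had a summit with the outermost TSS alone and 12.7% at that fold enrichment. With a window from 1 kb upstream to 100 bp downstream, the count was 2302 for protein-coding genes and 7 for the wider list, since summits further downstream are left out. Without the first 1 kb after every TSS of the same gene, 1011 protein-coding genes had a summit in the body. The rank of the Smo peak was 2 among TSSs of protein-coding transcripts, 2 with the narrower window and 16 by recovered reads. Median promoter GC content was 62.0% within 500 bp, 67.4% from 250 bp before to 50 bp after the TSS and 60.2% at the TSS nearest to the middle, and the median longest run was 15 bp and 18 bp in the latter pair. No paired analysis was possible because the peak lists used here were called on combined replicates. Peaks below the calling cutoff are not seen: the fewest reads at a listed summit were 13 in Chd1 KO and 17 in control.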
